A study of Mus musculus with 2 samples.

Results

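Genes of the visual cycle, the pathway that returns the light-sensitive retinoid to photoreceptors, were compared between cultured mouse neural retinal progenitor cells (mNRPCs) and mouse retina tissue. The 10 genes were chosen by name, with earlier results of these data known. They encode the retinoid-binding proteins Rlbp1 and Rbp3 and the retinol dehydrogenases Rdh5, Rdh8, Rdh10, Rdh11 and Rdh12. The others encode the opsin Rgr, the acyltransferase Lrat and the retinoid transporter Abca4. All 10 were found among the 31253 named genes of the table. The mNRPC group was 1 RNA sequencing library at passage 24, from progenitors that the study isolated from adult mouse retina and grew in chemically defined medium containing basic fibroblast growth factor and the GSK3 inhibitor CHIR99021. The labels give the strain of both groups as C57BL/6. The other group was 1 library of retina tissue, whose donor age the labels do not give, and how many animals stood behind either library is not given. No comparison below has a replicate, so no p-value was calculated and every interval covers counting error only.

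In the visual cycle, light turns the cis form of retinal bound to opsin into the all-trans form. Photoreceptors reduce it to retinol with dehydrogenases, and retinol is passed to the pigment epithelium, where Lrat makes retinyl esters and Rpe65 turns these back into a cis retinoid. Müller glia and pigment epithelium hold binding proteins and dehydrogenases for the cis forms. The pathway is therefore divided among cell types. On the mouse genome the members lie on 7 chromosomes, with Rdh11 and Rdh12 side by side on chromosome 12.

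Levels were given by the authors as FPKM, in which the fragments of a transcript are divided by its length and by the library's mapped fragments, so that genes can be compared. By an estimate from the lowest values, the mNRPC library held about 6.56e+06 fragments and the retina library 4.94e+06. The retina library carried its defining genes, as all 20 rod markers and all 10 cone markers reached 1 FPKM. Of genes known from retinal progenitors, Sox2 was at 231 FPKM in mNRPCs and 18.5 FPKM in retina. Pax6 was at 122.6 and 100.7 FPKM, a log2 ratio of 0.28, and Rax was listed at 0 in mNRPCs beside 81.7 FPKM in retina. By RT-PCR, however, the paper reported RAX in mNRPCs at passages on either side of the one sequenced here. A very low value can be a failed estimate, since the ubiquitous Rps19 was at only 0.0586 FPKM in retina, beside 10.2 FPKM in mNRPCs. Rps19 is a single gene and was not at 0, and whether the values of 0 below are failed estimates was not tested. For this reason a gene with a value of 0 is described as listed at 0, and a log2 ratio against it depends on the pseudocount. Counts of lower genes below include genes listed at 0.

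The start regions of 3 members that were low in mNRPCs and hold the letters TAATCC, the core bound by CRX and OTX homeodomain proteins of photoreceptors and pigment epithelium, are shown with that of Rdh11, the member highest in mNRPCs, which does not hold these letters. Each is the run of 250 bases before the annotated start, from RefSeq on GRCm38.p6, 5′ to 3′ on the gene's strand, with TAATCC or its reverse complement GGATTA in capitals.

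Rbp3, chr14:33953753-33954002, plus strand: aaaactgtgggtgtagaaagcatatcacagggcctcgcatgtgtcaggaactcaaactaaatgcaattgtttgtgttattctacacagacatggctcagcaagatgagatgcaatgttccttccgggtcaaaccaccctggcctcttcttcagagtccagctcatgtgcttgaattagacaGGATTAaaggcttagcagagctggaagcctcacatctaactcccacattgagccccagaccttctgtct
Abca4, chr3:122044210-122044459, plus strand: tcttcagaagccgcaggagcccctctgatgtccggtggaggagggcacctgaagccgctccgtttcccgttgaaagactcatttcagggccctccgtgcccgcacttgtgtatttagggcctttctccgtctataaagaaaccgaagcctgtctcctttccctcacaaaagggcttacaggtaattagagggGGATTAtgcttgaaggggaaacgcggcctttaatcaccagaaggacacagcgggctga
Rgr, chr14:37049015-37049264, minus strand: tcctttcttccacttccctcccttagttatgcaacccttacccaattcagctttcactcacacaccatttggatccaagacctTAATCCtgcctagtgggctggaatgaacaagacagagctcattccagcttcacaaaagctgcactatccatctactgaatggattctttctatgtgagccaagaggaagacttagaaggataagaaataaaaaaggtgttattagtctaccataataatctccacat
Rdh11, chr12:79191856-79192105, minus strand: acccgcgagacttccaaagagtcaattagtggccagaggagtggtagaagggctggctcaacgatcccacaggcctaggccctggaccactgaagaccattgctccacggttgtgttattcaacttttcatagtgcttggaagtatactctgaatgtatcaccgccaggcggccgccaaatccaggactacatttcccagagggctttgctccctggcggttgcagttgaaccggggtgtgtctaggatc

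The letters lay 69 to 64 bases before the start of Rbp3, 58 to 53 before that of Abca4 and 167 to 162 before that of Rgr. Of the 9 members with an entry in the promoter table, 3 held TAATCC on either strand, against 6.25% of all 32851 windows of this length. Members are counted here as genes, and these 9 have 10 windows. Of the 7 members counted as lower that have an entry, 4 did not hold TAATCC (Rlbp1, Rdh8, Rdh12 and Lrat), and neither did Rdh5 or Rdh11. TGCTGA, part of the Maf-type element bound by NRL, was found for Rlbp1, Rdh12 and Rbp3, and in 16.1% of all windows. TAATTA, the core of many homeodomain sites, was found for Abca4 and Rdh11 (4.84% of all windows), and TGACCT, the core of nuclear receptor sites, for Rdh11 alone (14.0%). For Rdh11 both lay in another annotated start region that is not printed. The 4 words were searched on both strands, and no match of one overlapped a match of another in these windows. GC content of the members' windows ran from 41.2% for Rgr to 59.2% for Lrat, around the median of 52.4% over all windows. These matches are descriptions of the letters only.

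In retina all 10 members reached 1 FPKM, and in mNRPCs only Rdh11 and Rdh5 did. On the log2(FPKM + 1) scale, 8 members were at least 2-fold lower in mNRPCs, against 30.0% of 13780 genes compared. Rdh11 was at least 2-fold higher, against 24.5% of these genes, and Rdh5 lay within 2-fold, while 54.4% of the genes compared passed the threshold in either direction. In bulk samples fewer cells of a type and less RNA per cell cannot be told apart. The 8 lower members entered through the retina level alone, since none of these reached 1 FPKM in mNRPCs. Of these 8, Rdh8, Rgr and Lrat were listed at 0 there, so 3 of the calls rest on values that can be failed estimates. Among the 615 genes whose retina level was 100 FPKM or more, 38.0% were lower by the same measure. Rbp3, Rdh12, Rlbp1 and Abca4 are the 4 members in that range, and all 4 were lower. The median log2 ratio of the 10 members was −5.10 and that of all genes compared −0.12. With the 4 members at or under 3 estimated fragments in mNRPCs set to that limit, and with no pseudocount, the members' median was −7.47. The members together made up 0.370% of the FPKM total in retina and 0.00783% in mNRPCs.

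**Figure D1:**
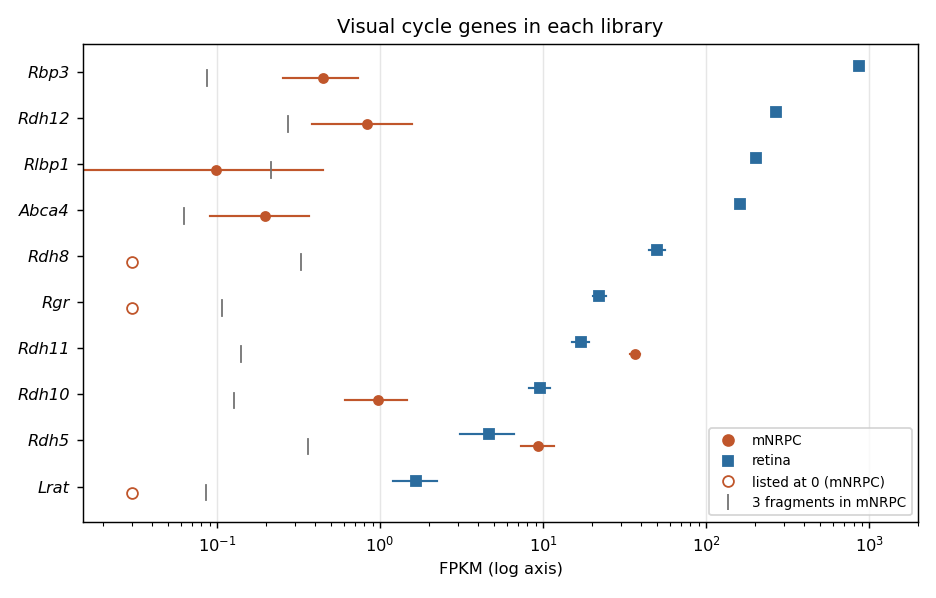
Level of each visual cycle gene in FPKM on a log axis, with circles for the mNRPC library, squares for the retina library and lines for 95% counting intervals. Open circles mark genes listed at 0 in mNRPCs and grey ticks the level that 3 fragments would give there. The line of Rlbp1 runs past the left edge, and Rdh11 and Rdh5 are the 2 genes whose mNRPC level is to the right of the retina level.

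The genes of retinoid transport outside and across the photoreceptor membrane were among the most abundant members in retina. Rbp3 encodes the interphotoreceptor retinoid-binding protein, which photoreceptors secrete and which carries retinoids between these cells, Müller glia and pigment epithelium. Rbp3 was at 865 FPKM in retina, place 28 of all genes, and at 0.447 FPKM in mNRPCs. The mNRPC level was 0.0516% of the retina level (95% interval 0.0304% to 0.0865%) and rested on an estimated 15.5 fragments. Abca4 encodes the outer segment transporter that clears retinal from the disc lumen. It was at 160.1 FPKM in retina, place 347, and at 0.196 FPKM in mNRPCs, which was 0.122% of the retina level (0.0539% to 0.224%). Log2 ratios were −9.23 for Rbp3 and −7.07 for Abca4. The retina level of Abca4 was spread over 5 transcript rows, of which the curated one, NM_007378.1, held 75.1%.

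Rdh12 and Rdh8 encode the dehydrogenases with which photoreceptors reduce all-trans retinal, Rdh8 in the outer segment and Rdh12 in the inner segment. Rdh12 was at 267 FPKM in retina and 0.833 FPKM in mNRPCs, a log2 ratio of −7.19. The mNRPC level was 0.312% of the retina level (0.140% to 0.583%), on an estimated 9.17 fragments. Rdh8 was at 50.0 FPKM in retina and listed at 0 in mNRPCs, where 3 fragments would be 0.325 FPKM.

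Rlbp1 encodes the cellular retinaldehyde-binding protein of Müller glia and pigment epithelium, which holds cis retinoids. It was at 202 FPKM in retina and at 0.0986 FPKM in mNRPCs, 0.0488% of the retina level, with a wide interval of 0.000892% to 0.197% because the value came to an estimated 1.38 fragments. In retina 70.5% of Rlbp1 lay on the curated transcript NM_001173483.1 and 23.9% on NM_020599.2. Rgr encodes a retinal-binding opsin of Müller glia and pigment epithelium that photoisomerises all-trans retinal. It was at 22.1 FPKM in retina and listed at 0 in mNRPCs, where 3 fragments would be 0.108 FPKM. A predicted transcript, XM_011245125.1, held 65.3% of the Rgr level in retina, so the log2(FPKM + 1) difference of −4.53 became −3.12 with curated rows only.

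Lrat encodes lecithin retinol acyltransferase, which makes the retinyl esters that Rpe65 uses. Lrat was the lowest member in retina, at 1.66 FPKM or an estimated 44.0 fragments, and was listed at 0 in mNRPCs, where 3 fragments would be 0.0854 FPKM. Rdh10 encodes a retinol dehydrogenase of pigment epithelium and Müller glia that also serves retinoic acid synthesis in the embryo. It was at 9.51 FPKM in retina and 0.968 FPKM in mNRPCs, 10.2% of the retina level (6.33% to 15.9%), and the log2 ratio was −2.42. Its counting interval in mNRPCs overlapped that of Rdh12.

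Rdh11 and Rdh5 were the members with a higher level in mNRPCs. Rdh11 encodes a retinol dehydrogenase found in many tissues. It was at 36.5 FPKM in mNRPCs, from about 781 fragments, against 17.1 FPKM in retina, 2.14-fold higher in mNRPCs (1.86 to 2.46), with a log2 ratio of 1.05. Rescaling both libraries to a common FPKM sum brought this to 0.56, below the 2-fold threshold. Rdh5 encodes the cis-retinol dehydrogenase of the pigment epithelium. It was at 9.28 FPKM in mNRPCs and 4.63 FPKM in retina, 2.01-fold higher (1.29 to 3.18), with a log2 ratio of 0.87 and 0.43 after the same rescaling. That rescaling also took the median over the genes compared from −0.12 to −0.60, and before it Rdh11 stood 1.17 and Rdh5 0.99 above that median.

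**Figure D2:**
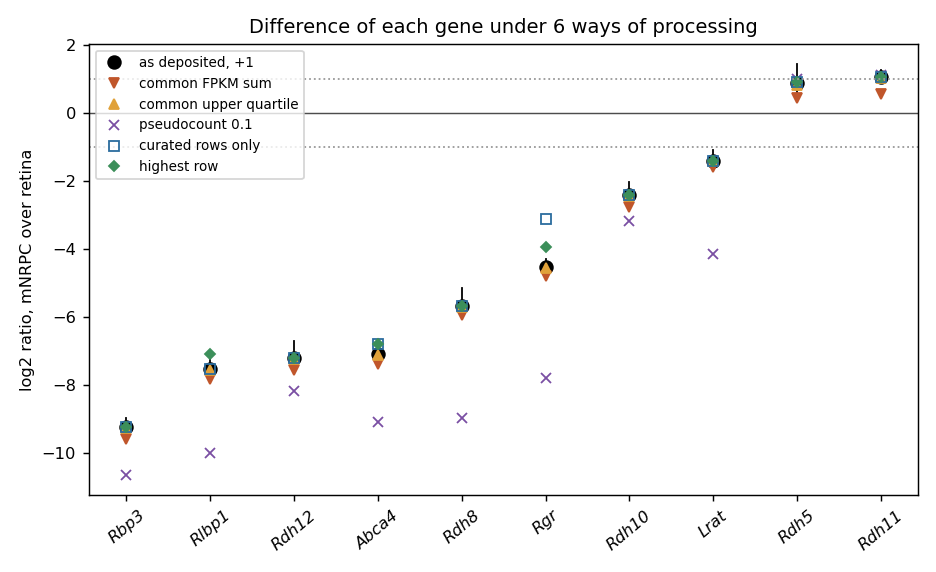
Log2 ratio of mNRPC over retina for each visual cycle gene under 6 ways of processing, with black lines for the 95% counting interval of the values as deposited and dotted lines at 2-fold. The 8 genes on the left stay below −1 in each of these, while Rdh11 is at 0.56 with a common FPKM sum.

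Part of the Rdh5 sequence is shared with its neighbour Bloc1s1, a gene of lysosome-related organelle formation on the same strand. Of 1228 runs of 31 bases in the Rdh5 transcript, 228 (18.6%) also occur in 1 annotated Bloc1s1 transcript of 613 bases, and these lie within bases 491 to 748 of Rdh5. The Bloc1s1 transcript that is paired with a row of the table has a length of 550 bases and shares 0 such runs. Bloc1s1 was at 134 FPKM in mNRPCs and 71.5 FPKM in retina, a log2 ratio of 0.90 beside 0.87 for Rdh5. Whether Bloc1s1 reads entered the Rdh5 value was not tested, and the Rdh5 level is uncertain in both libraries. No run of 31 bases was shared between any 2 of the Rdh members, Rdh11 and Rdh12 included, although these stand next to each other on chromosome 12 with 0 annotated genes between. Rdh11 shared 14 of its runs with Gm7880, Rgr shared 12 with other genes, Lrat shared 1 and the remaining members 0.

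The dehydrogenases had a different make-up in the libraries, and this does not depend on how the libraries are scaled. Of the summed FPKM of the 5 Rdh members, Rdh12 held 76.7% in retina and 1.75% in mNRPCs. Rdh11 held 4.91% in retina and 76.7% in mNRPCs, and Rdh5 held 1.33% and 19.5%. Rdh8 held 14.4% of the retina sum and was listed at 0 in mNRPCs, while Rdh10 held 2.73% in retina and 2.03% in mNRPCs. Without Rdh5, left out after seeing the data because its level is uncertain, Rdh11 held 95.3% in mNRPCs and 4.97% in retina, and Rdh12 held 2.17% and 77.7%. With Rdh13, a mitochondrial member of the family, and Rdh14 added, the sum was 72.5 FPKM in mNRPCs and 383 FPKM in retina. In that pool Rdh11 held 50.4% and Rdh14 25.2% in mNRPCs, and Rdh12 held 69.7% in retina. The photoreceptor dehydrogenases thus led in retina, and the broadly expressed Rdh11 and Rdh14 led in mNRPCs.

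**Figure D3:**
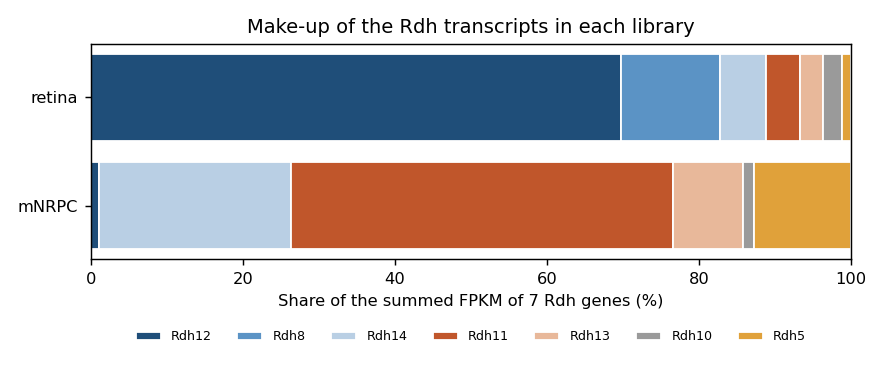
Share of each Rdh gene, in percent, of the summed FPKM of 7 Rdh genes in the mNRPC and retina libraries. Rdh12 takes 69.7% of the retina bar and Rdh11 50.4% of the mNRPC bar.

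In retina Rbp3 was followed by Rdh12, Rlbp1, Abca4, Rdh8, Rgr, Rdh11, Rdh10, Rdh5 and Lrat, and no counting interval overlapped that of the next gene. The place of Rgr rests on its predicted transcript. With curated rows only Rgr was at 7.68 FPKM, below Rdh11 and Rdh10, and with the highest row of each gene it was at 14.4 FPKM, below Rdh11, while the other 9 members kept their order. In mNRPCs the order was Rdh11, Rdh5, Rdh10, Rdh12, Rbp3, Abca4 and Rlbp1, with Rdh8, Rgr and Lrat listed at 0. There only Rdh11 and Rdh5 stood apart from the next gene, and from Rdh10 downwards the intervals of neighbours overlapped. Rdh11 was at place 2387 of all genes in mNRPCs and 4445 in retina.

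Marker genes of the cells that use the cycle were mostly lower in mNRPCs too. All 20 rod markers, each at 100 FPKM or more in retina, were at least 2-fold lower in mNRPCs. Of all genes compared 30.0% were lower, and of those at 100 FPKM or more in retina 38.0%. The rod list summed to 49.9 FPKM in mNRPCs and 36962 FPKM in retina, and its median mNRPC level was 0.0543% of the retina level. The quartiles of that percentage over the list were 0.0330% and 0.0689%. It was highest for Reep6, at 4.95%, and lowest for Gngt1, at 0.00702% on an estimated 1.98 fragments, which leaves the low end unresolved (0.000858% to 0.0256%). The percentages of Rbp3 and Rlbp1 lay between the quartiles, though the counting intervals of both genes ran past the quartiles at either end. The percentages of Abca4 and Rdh12 were each above 17 of the 20 rod markers, though the counting interval of Abca4 reached down to the list median. The percentage of Rdh10 was above all 20. Rlbp1 and Rdh10, known from Müller glia and pigment epithelium, are set beside the Müller glia list below. Rcvrn, which encodes a calcium sensor of photoreceptors, had 0.133 FPKM in mNRPCs beside 783 FPKM in retina. Nrl, a rod transcription factor, had 0.472 and 885 FPKM. By immunofluorescence the paper reported RCVRN protein in mNRPCs. Of the list 7 genes reached 1 FPKM in mNRPCs, with Reep6 at 20.0 FPKM (404 in retina) and Rom1 at 11.2 FPKM (1754 in retina) among these. What these rod transcripts contribute to the mNRPC values of the members was not tested.

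The 10 cone markers summed to 2.11 FPKM in mNRPCs and 998 FPKM in retina. All 10 were counted as lower, beside 30.0% of all genes compared. This count includes 3 that were listed at 0 in mNRPCs, values that can be failed estimates. Arr3, the cone arrestin gene, was at 0.125 FPKM in mNRPCs and 234 FPKM in retina. Of 14 Müller glia markers 12 were counted as lower and 2 as higher, beside 30.0% lower and 24.5% higher among all genes compared. The median mNRPC level of the list was 0.575% of the retina level. Of the members known from these cells, Rlbp1 (0.0488%) was below that median, Rdh10 (10.2%) above it and Rgr listed at 0. The 14 markers summed to 1786 FPKM in mNRPCs, of which Dbi alone made up 1517 FPKM, and 2659 FPKM in retina. Glul, whose product makes glutamine from glutamate, had 31.4 FPKM in mNRPCs beside 897 FPKM in retina, and the glutamate transporter gene Slc1a3 at 0.0299 and 44.8 FPKM. Kcnj10 and Abca8a, which are among the 12 counted as lower, were listed at 0 in mNRPCs. Dbi (206 FPKM in retina) and Cp (146 FPKM in mNRPCs and 36.8 FPKM in retina) were the 2 higher genes of that list.

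The retina library also held genes of the pigment epithelium, the layer that Lrat and Rdh5 are best known from. Of 13 such markers 11 reached 1 FPKM in retina and 0 in mNRPCs, with sums of 256 and 1.15 FPKM, and 7 were listed at 0 in mNRPCs. Rpe65 was at 8.53 FPKM in retina, Ttr at 56.5 FPKM, Dct at 15.2 FPKM, Krt18 at 26.5 FPKM and Otx2, which photoreceptors and bipolar cells express too, at 119 FPKM. Otx2, Ttr and Krt18 made up most of the retina sum. Best1 and Tyr were below 1 FPKM in retina, at 0.215 and 0.656 FPKM, and Mitf was at 1.62 FPKM. Rpe65, Ttr, Dct and Krt18 were listed at 0 in mNRPCs. How much of the retina level of Rlbp1, Rgr, Lrat, Rdh5 and Rdh10 came from pigment epithelium was not tested.

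**Figure D4:**
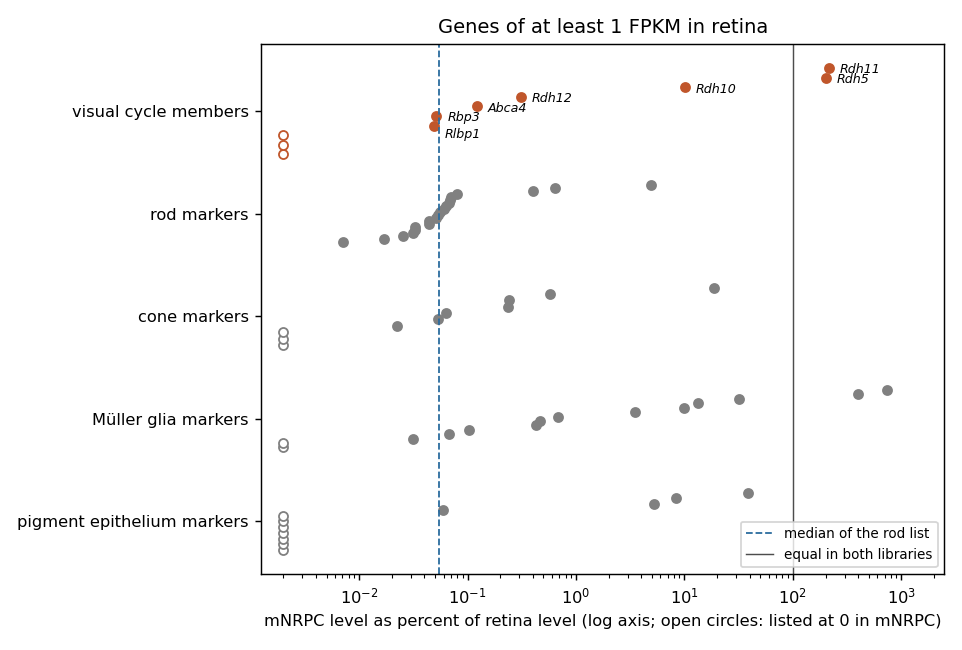
mNRPC level as percent of the retina level on a log axis, for visual cycle members and marker lists, genes of at least 1 FPKM in retina only. Open circles are genes listed at 0 in mNRPCs, the dashed line is the rod list median of 0.0543%, and Rdh11 and Rdh5 lie to the right of the line of equal levels.

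Other genes that handle retinoids were read from a list of 24, of which 14 reached 1 FPKM in at least 1 library. Of these 4 were at least 2-fold higher in mNRPCs, 5 lower and 5 within 2-fold, beside 24.5% higher and 30.0% lower among all genes compared, and the median log2 ratio was −0.51. With a common FPKM sum 3 were higher and 6 lower. The remaining 10 were below 1 FPKM in both libraries.

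Adh7, Retsat and Degs1 were among the higher genes. Adh7, an alcohol dehydrogenase that oxidises retinol, was at 75.0 FPKM in mNRPCs and at 0.0561 FPKM in retina, an estimated 0.952 fragments there, with a log2 ratio of 6.17. Retsat, the gene of retinol saturase, was at 15.5 and 3.97 FPKM, 3.90-fold higher (2.97 to 5.29). Degs1, best known as a sphingolipid desaturase, was at 78.5 and 33.7 FPKM, 2.33-fold higher (2.06 to 2.64), and came within 2-fold with a common FPKM sum. Adh7 also passed a 4-fold threshold.

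Among the genes counted as lower was the isomerase of the cycle, Rpe65. Rrh, a pigment epithelium opsin related to Rgr (12.1 FPKM in retina), and Ttr, the retinol carrier of plasma and pigment epithelium, were also counted. All 3 were listed at 0 in mNRPCs, so these calls rest on values that can be failed estimates. Dhrs3, which reduces retinal, was at 17.9 FPKM in mNRPCs and 51.2 FPKM in retina (log2 ratio −1.46). Dgat1, an acyltransferase that can esterify retinol, was at 6.40 and 14.9 FPKM (−1.10). Dhrs7 was at 32.7 and 32.3 FPKM, a ratio of 1.01 (0.848 to 1.21). Rdh14 was at 18.2 and 23.3 FPKM (−0.34) and Rdh13 at 6.66 and 11.4 FPKM (−0.70).

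**Figure D5:**
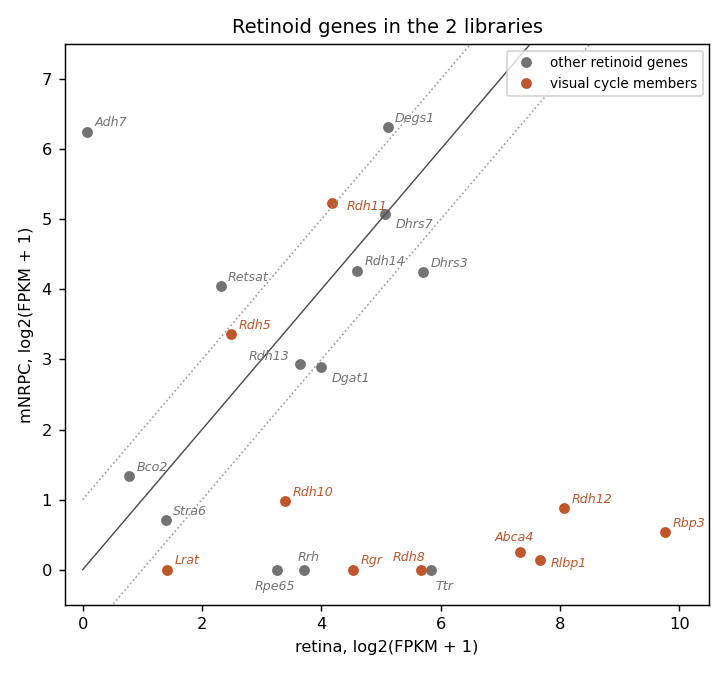
Level of retinoid genes as log2(FPKM + 1) in retina (horizontal) and mNRPCs (vertical), with members in orange and 13 other retinoid genes that reached 1 FPKM in grey. The solid line marks equal levels and the dotted lines 2-fold. Adh7 lies far above the lines, and most members lie along the bottom with less than 1 FPKM in mNRPCs.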

How the data were processed

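RNA sequencing values of 1 mNRPC library and 1 retina library were used, with groups taken from the labels. The values deposited by the authors were FPKM per RefSeq transcript. For its RNA sequencing of treated cells the study describes mapping with Bowtie 2 and estimation with eXpress. For these 2 libraries the submitters' processing notes name TopHat2 2.0.10 and GRCm38.p3. Strand use and read length are not given in the sources used here.

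Accessions were matched without version to the RefSeq gene table (GRCm38.p6) and, failing that, to GENCODE release M21, which named 74283 of 106754 rows (69.6%). Rows were summed per gene, and estimates under 1e-06 FPKM were read as 0. As in the study, 1 was added before log2. The comparison took genes that reached 1 FPKM in either library, and a log2 ratio of 1 in size was counted as 2-fold. The pseudocount understates the ratio of low genes.

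Depth was estimated from rows of single-transcript genes, whose FPKM times length gathers at 1 fragment. Only 52.6% of 813 low mNRPC values and 49.9% of 907 retina values lay within 0.2 of a whole fragment, against 40.0% by chance, so no count test was run. With transcripts of at least 2500 bp the estimates were 6.50e+06 and 5.68e+06. Fragment numbers of single genes use GENCODE lengths, are approximate, and were given 95% exact Poisson intervals. Those of ratios were Clopper-Pearson intervals on rounded fragment numbers. Python 3.11.15, pandas 2.3.3 and scipy 1.17.1 were used.

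The members, the gene lists and the sequence words were chosen with earlier results of these data known. Every member is named. Of the other lists a gene could be named where it reached 10 FPKM in 1 library or defines a cell type, and rods, cones and glia are shown by examples. One gene of the list of other retinoid genes is counted there but not reported by name or drawn. Rps19, Bloc1s1, Sox2, Pax6 and Rax were named after their values were seen or from earlier results. Alternatives were 2 scalings, 2 pseudocounts, 3 treatments of transcript rows, another threshold and other filters.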

Additional observations from a re-analysis of the deposited data

How the results depend on the processing

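The direction of each member's log2 ratio was the same under each alternative for scaling, pseudocount and transcript rows. Of 69 values of single members 39 stayed within the counting interval, 30 moved beyond it and 0 changed sign. The median of the members was −5.37 with a common FPKM sum, −7.98 with a pseudocount of 0.1, −8.95 with 0.01, −4.39 with curated rows only and −3.12 with versioned accessions, which left out Rdh12, whose row carries another version number, and took Rgr from −4.53 to −3.12, the middle value of the 9 members left. A smaller pseudocount widens ratios of low genes by construction. For curated rows the main shift was in Rgr, whose predicted row was dropped.

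The number of members at least 2-fold higher was 0 with a common FPKM sum, 2 with a pseudocount of 0.01, when Rdh5 joined Rdh11, and 0 with a 4-fold threshold. That threshold left 7 lower members, 1942 lower genes and 1547 higher genes of all genes compared, fewer by construction. Genes past the 2-fold threshold were higher in 44.9% of cases as deposited (3371 higher and 4130 lower) and in 31.1% with a common FPKM sum (2491 and 5517). Among genes of at least 5 FPKM the higher genes were the larger group, at 50.9% (2879 and 2774). Depth limits Rdh8, Rgr, Lrat and Rlbp1, for which mNRPC values are at or under 3 estimated fragments. No paired analysis was possible because neither group had replicates.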
